A study of Mus musculus with 9 samples.

Results

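Transcripts of 10 autophagy genes were followed in heated mouse testis cells: Sqstm1, Map1lc3a, Map1lc3b, Gabarapl1, Gabarapl2, Becn1, Ulk1, Wipi1, Atg12 and Tfeb. They were chosen by name for their place in selective autophagy, with earlier results of these data known. All 10 were found among the 20716 named genes of the deposited table. The cells were primary peritubular myoid cells of C57BL/6J mice, contractile cells that wrap the seminiferous tubules. Controls were untreated and grown at 37 °C. Heated dishes spent 30 min in a water bath at 42 °C, went back to 37 °C and were collected after 1 h or after 6 h. Each group had 3 libraries, and the labels do not say whether these came from separate mice or cultures, so p-values measure only the spread between libraries, which may be technical. The control group has no collection time of its own in the labels, and the cells are a primary isolate that can carry other cells of the testis.

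Autophagy encloses cytoplasm in a double membrane, the autophagosome, and delivers it to the lysosome for digestion. The ULK1 kinase and the Beclin 1 lipid kinase complex start the membrane, WIPI proteins read the lipid they make, and a conjugation machinery that includes ATG12 attaches ATG8 proteins (the LC3 and GABARAP families) to it. In selective autophagy a receptor such as p62, the product of Sqstm1, binds ubiquitin-tagged cargo and ATG8 proteins at once. p62 also binds KEAP1, the inhibitor of the transcription factor NRF2, and TFEB is a transcription factor for autophagy and lysosome genes. Autophagy is controlled largely through proteins, which these RNA data do not measure.

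Levels are in FPKM, a unit that corrects for the length of a transcript and for the depth of its library. Estimated depth was 19050000 to 20000000 reads a library, so the members had between 118 reads (the lowest Tfeb value) and 20042 reads (the highest Sqstm1 value). Of the listed myoid markers, Tagln (1601.96 to 2231.16 FPKM) and Acta2 (991.59 to 1627.39 FPKM) were abundant in all 9 libraries. The others were lower and uneven, each highest in control 3. Actg2 was at 41.4 to 216.47 FPKM, Cnn1 at 18.38 to 119.39, Des at 11.02 to 63.7 and Myh11 at 8.41 to 48.84. Cnn1, Des and Myh11 were lowest in the 6 h library 2. Markers of other testis cells were present too. The summed Sertoli cell markers were 287 to 3110 FPKM in controls, 247 to 536 at 1 h and 388 to 497 at 6 h, and the top value came from control 3, where Clu stood at 2700.02 and Cldn11 at 236.76 FPKM. Of the 9 Sertoli markers, 8 (all but Gata4) had their highest value in control 3, with Wt1 at 53.76, Sox9 at 27.72 and Dhh at 7.18 FPKM there, while the levels of Amh, Fshr and Rhox5 were at most 1.64 FPKM in any library. Summed Leydig cell markers were 910 to 2140, 872 to 2030 and 1400 to 2030 FPKM in the 3 groups, led by Insl3 and Cyp11a1, with Cyp17a1, Lhcgr and Hsd17b3 at or near 0. Markers beyond the top 3 of a list are named after their values were seen. Summed macrophage markers were 54.2 to 84.7, 56.2 to 228 and 43.6 to 234 FPKM, summed endothelial markers 40.9 to 85.1, 28.8 to 54.5 and 30.3 to 61 FPKM, and summed germ cell markers at most 8.12 FPKM. Fewer cells of a type and less RNA per cell cannot be told apart in such bulk samples. Control 3 and the 6 h library 2 stood apart from their groups. Many named results are also given without 1 or both of them, but not every result that rests on them.

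Against control, the cargo receptor Sqstm1 had the largest difference of the 10 members at 1 h and at 6 h, and no member passed the test across all genes. A gene passed at an adjusted p below 0.05 in limma over 11460 tested genes. At 1 h against control 0 of 10 members passed, where 0.157% of all tested genes did (18 genes, all higher). At 6 h against control 0 members passed, as did 0% of all genes. At 6 h against 1 h 0 members passed, where 0.279% of all genes did (32 genes, all lower). At an unadjusted p below 0.05, Sqstm1 was the 1 member higher at 1 h and again at 6 h, beside 2.76% and 1.27% of all tested genes, and no member was past that level at 6 h against 1 h. In limma the smallest adjusted p of any member was 0.42 at 1 h and 0.88 at 6 h, and between the heated groups it was 0.59. The median log2 change of the 10 members was -0.11 at 1 h, -0.03 at 6 h and 0.10 between the heated groups. Over all tested genes the medians were -0.17, -0.06 and 0.09. At 1 h 6 of the 10 member changes were below 0, as were 8729 of all 11460. A log2 value here is on the log2(FPKM + 1) scale.

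**Figure D1:**
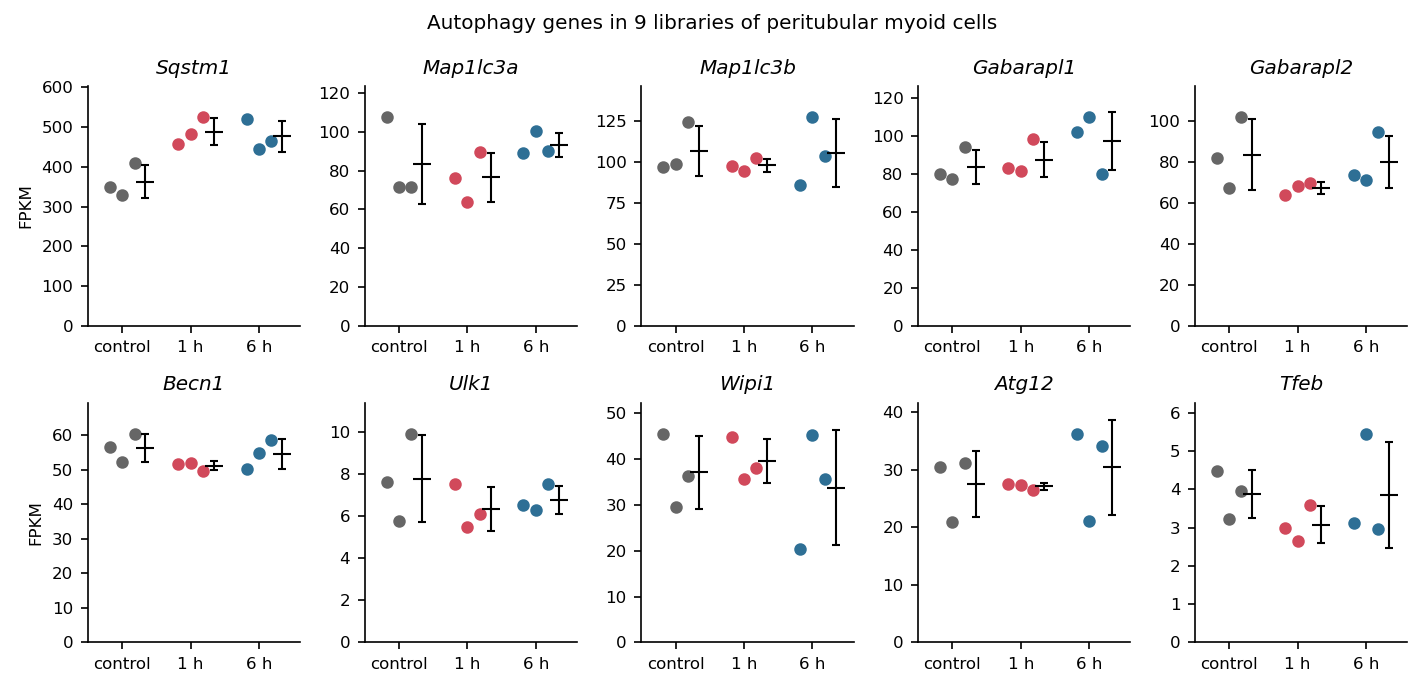
FPKM of each of the 10 genes (vertical axes, from 0) in the 3 control, 3 1 h and 3 6 h libraries; points are libraries, bars the mean and SD of each group. The 3 Sqstm1 points at 1 h, 457.28 to 524.6 FPKM, and the 3 at 6 h lie above all 3 control points, while the points of the other genes mostly mix.

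Sqstm1 encodes the cargo receptor p62 and spans chr11:50200152-50210820 on the minus strand (mm10). Its FPKM was 349.93, 328.47 and 409.30 in the controls, 457.28, 482.00 and 524.60 at 1 h, and 520.81, 445.01 and 464.17 at 6 h. Every heated library was above every control, and the 1 h and 6 h libraries overlapped. Group means were 362.6 ± 41.9, 488 ± 34.1 and 476.7 ± 39.4 FPKM (SD, n = 3 each), 1.35 times control at 1 h and 1.31 times at 6 h. The log2 change at 1 h was 0.43 (SE 0.16, 95% interval 0.08 to 0.78), with an unadjusted p of 0.021 and an adjusted p of 0.42 in limma. At 6 h it was 0.40 (interval 0.05 to 0.75, adjusted p 0.88), and 6 h against 1 h differed by -0.03 (interval -0.39 to 0.32). By p the 1 h change ranked 568 of 11460 genes, and 6.21% of all genes had a log2 change as high or higher; at 6 h that share was 5.33%. Libraries that do not overlap, higher, were found for 4.49% of all genes at 1 h and 1.89% at 6 h.

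The Sqstm1 difference kept its sign in all 20 alternatives of the processing at both times, from 0.30 to 0.61 at 1 h and from 0.21 to 0.54 at 6 h. It passed in 1 of them, with limma's weights for library quality at 1 h (0.47, adjusted p 0.019), an estimate that stopped before it converged. Under those weights far more of all tested genes passed than in the main fit, as given in the closing section. With quantile normalization the heated and control libraries overlapped at both times. Without control 3 the 1 h change was 0.52 (adjusted p 0.38), and without control 3 and the 6 h library 2 the 6 h change was 0.54 (adjusted p 0.68). Control 3, the library with the high Sertoli markers, had the highest Sqstm1 value of the controls.

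Sequence upstream of the start is shown for Sqstm1 and, as the other member with a window whose libraries separated in a comparison, for Gabarapl2. Each run is the 100 bases before the RefSeq start on GRCm38.p6 (chr11:50210821-50210920, minus strand, and chr8:111940603-111940702, plus strand), with GC boxes in capitals (GGGCGG, or CCGCCC on the other strand), a motif common in housekeeping promoters.
Sqstm1: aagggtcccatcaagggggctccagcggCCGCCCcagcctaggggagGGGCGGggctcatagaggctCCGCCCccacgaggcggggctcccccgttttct
Gabarapl2: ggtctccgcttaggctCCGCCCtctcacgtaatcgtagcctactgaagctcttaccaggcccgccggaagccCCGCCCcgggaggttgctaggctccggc

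Windows of 250 bases before the start were searched on both strands for 7 members, 9 windows in all; Map1lc3a, Becn1 and Atg12 were not searched. Each of the 7 members had at least 1 GC box, from 1 in Map1lc3b to 8 in Wipi1, and 32.7% of all 32851 windows had at least 1. None of the 9 windows held the E-box CACGTG bound by TFEB and its relatives (6.02% of all windows) or its longer form TCACGTGA, which contains it (0.785%). The heat shock element pairs GAANNTTC (6.69%) and TTCNNGAA (7.17%), the antioxidant response core TGACNNNGC (10.2%) and the TATA box TATAAA (12.4%) were not in these letters either. Elements farther from the start were not searched.

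The 4 ATG8 members and Gabarap, the fifth family gene analysed, tether cargo receptors to the membrane. Map1lc3a, an LC3 gene, was at 107.52, 71.69 and 71.58 FPKM in controls, 76.18, 63.92 and 89.50 at 1 h, and 89.32, 100.45 and 90.06 at 6 h. The 6 h libraries were close together, within the range of the controls. Map1lc3b, the LC3 gene usually followed as LC3B, was at 97.00, 98.34 and 124.02 in controls, 97.12, 94.24 and 102.29 at 1 h, and 85.63, 127.07 and 103.49 at 6 h. All 3 groups overlapped. Gabarapl1 was at 80.02, 77.61 and 94.26 in controls, 83.29, 81.50 and 98.40 at 1 h, and 102.36, 110.08 and 80.30 at 6 h. Its 6 h libraries 1 and 2 were the highest of all 9, and library 3 was among the lowest. Gabarapl2 was at 82.24, 67.20 and 102.01 in controls, 64.05, 68.27 and 69.67 at 1 h, and 73.97, 71.47 and 95 at 6 h.

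Their log2 changes at 1 h were -0.11 (Map1lc3a), -0.11 (Map1lc3b), 0.06 (Gabarapl1) and -0.29 (Gabarapl2), with adjusted p from 0.54 to 0.86. The intervals reached from -0.70 at the lowest (Gabarapl2) to 0.43 at the highest (Gabarapl1), so changes up to those sizes in these genes are not excluded. At 6 h against control the log2 changes were 0.18, -0.02, 0.21 and -0.06 in the same order. Without control 3 they were 0.08, 0.09, 0.29 and 0.10, and without the 6 h library 2 they were 0.13, -0.17, 0.12 and 0.02. At 1 h, without control 3, they were -0.21 (Map1lc3a), 0.002 (Map1lc3b) and 0.15 (Gabarapl1). Every 6 h library of Gabarapl2 was above every 1 h library, a log2 difference of 0.24 (adjusted p 0.64). Such separation, higher, held for 15.2% of all genes in that comparison, and for Gabarapl2 it was lost under median-of-ratios scaling and under quantile normalization. Without control 3, its highest library, the 1 h change of Gabarapl2 was -0.14.

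Gabarap carried the largest part of the family's RNA. Its FPKM was 347.44, 380.11 and 323.62 in controls, 351.08, 355.78 and 361.79 at 1 h, and 335.97, 541.82 and 368.97 at 6 h. Per length it made up 45.2% to 57% of the summed ATG8 FPKM, and each of the 4 members 7.5% to 17.3%. The 1 h shares were 52 ± 1.8% for Gabarap, 14.3 ± 0.16% for Map1lc3b, 12.8 ± 0.75% for Gabarapl1, 11.1 ± 1.4% for Map1lc3a and 9.8 ± 0.4% for Gabarapl2 (SD, n = 3), each mean inside the range of the controls. The sum was 663.7 to 737.8 FPKM in 8 libraries and 950.9 in the 6 h library 2, in which Gabarap, Gabarapl1 and Map1lc3b all had their highest value. Sqstm1 over this sum was 0.49, 0.473 and 0.572 in controls and 0.681, 0.726 and 0.727 at 1 h. At 6 h it was 0.758, 0.468 and 0.629, where the library with the high ATG8 sum lay below every control and the other libraries above.

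**Figure D2:**
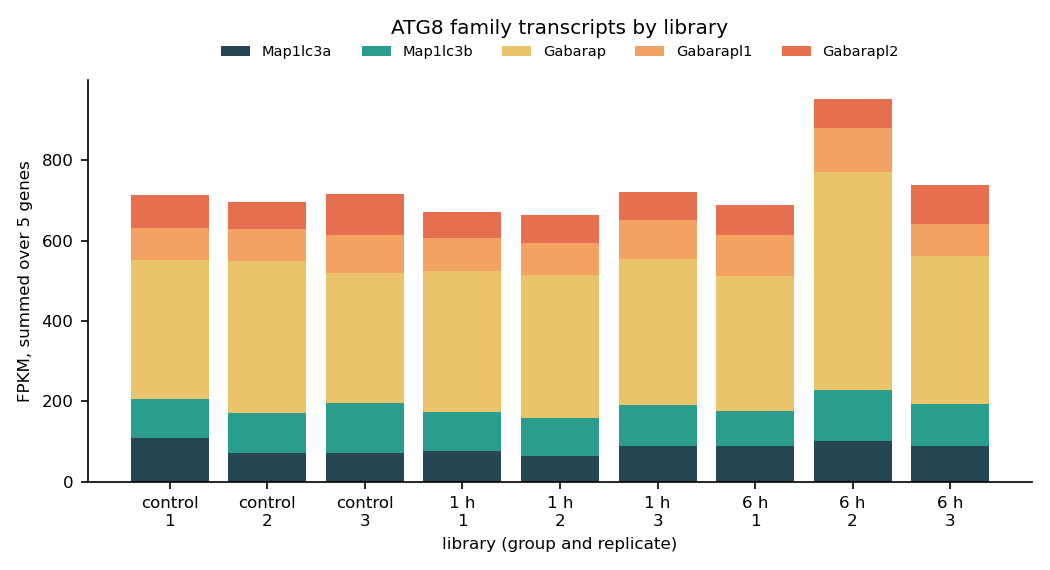
FPKM of the 5 ATG8 family genes (stacked bars from 0, vertical axis) in each of the 9 libraries, controls at the left, then 1 h and 6 h. Gabarap is the widest block in every library, and the 6 h library 2 reaches 950.9 FPKM in sum against at most 737.8 elsewhere.

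How far reads of one family gene could fall to another depends on how alike their sequences are. Over the coding sequence, the 10 pairs of the 5 genes were 51.4% to 76.5% identical, highest for Map1lc3a and Map1lc3b, and their longest shared runs were 7 to 17 bases. Coding bases 238 to 287 of that closest pair (GENCODE M21, sense strand) are shown for this reason, with their longest shared run in capitals.
Map1lc3a: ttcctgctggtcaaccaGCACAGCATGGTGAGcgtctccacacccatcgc
Map1lc3b: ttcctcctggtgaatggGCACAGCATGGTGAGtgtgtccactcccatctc

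No 50-base word of the Map1lc3a coding sequence was found in another gene. Processed pseudogenes were a closer match for others: 96.4% of the 50-base words of the Map1lc3b coding sequence also occur in 5 pseudogenes, and 90.8% of those of Gabarapl2 in 4. None of these pseudogenes was found by name in the deposited table. How reads that match such copies were counted is not given in the sources used here, so the levels of Map1lc3b and Gabarapl2 are uncertain. For Gabarapl1 14.1% and for Becn1 5.24% of the words were shared with another gene, and for the other 6 members none. Becn1 overlaps Cntd1 on the opposite strand by 435 bp. Cntd1 stood at 0.23 to 0.38 FPKM, and whether counting used strand is not given in the sources used here.

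Among the genes that start the autophagosome, Becn1 (Beclin 1, of the lipid kinase complex) varied little. It was at 56.60, 52.27 and 60.46 FPKM in controls, 51.84, 52.03 and 49.81 at 1 h, and 50.15, 54.80 and 58.69 at 6 h. Every 1 h library was just below every control, a log2 change of -0.14 (interval -0.42 to 0.15, adjusted p 0.65). Libraries that do not overlap, lower, were found for 21.4% of all genes at 1 h, and with median-of-ratios scaling the Becn1 change was 0.04 and its libraries overlapped. Ulk1, the initiating kinase, was at 7.63, 5.80 and 9.93 FPKM in controls, 7.52, 5.47 and 6.10 at 1 h, and 6.53, 6.29 and 7.56 at 6 h. Its groups overlapped, with log2 changes of -0.24 at 1 h and -0.15 at 6 h. Without control 3, the highest library of both genes, the 1 h changes were -0.09 for Becn1 and -0.07 for Ulk1. At 6 h the Ulk1 change was 0.02 without control 3 and -0.32 without control 2, so its sign rested on single controls, and that of Becn1, -0.05, was 0.001 without control 3.

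Wipi1, which binds the lipid PI3P on the forming membrane, was at 45.49, 29.54 and 36.23 FPKM in controls, 44.87, 35.72 and 37.99 at 1 h, and 20.37, 45.14 and 35.71 at 6 h. It had the widest range of the 10, with the highest library at 2.23 times the lowest, and its extremes were a control and a 6 h library. The log2 change was 0.10 at 1 h and -0.18 at 6 h, and the latter was 0.13 without the 6 h library 1 and -0.42 without the 6 h library 2. Atg12, the ubiquitin-like protein of the conjugation machinery, was at 30.48, 20.98 and 31.12 FPKM in controls, 27.60, 27.39 and 26.48 at 1 h, and 36.25, 21.02 and 34.10 at 6 h. Its 1 h libraries lay inside the range of the controls, with a log2 change of 0.00 (interval -0.50 to 0.51). At 6 h the change was 0.12, 0.22 without control 3, 0.36 without the 6 h library 2 and -0.05 without control 2. Without control 3 the 1 h change was 0.10.

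Tfeb, the transcription factor for lysosome and autophagy genes, had the lowest level, at 4.47, 3.22 and 3.96 FPKM in controls, 2.99, 2.64 and 3.59 at 1 h, and 3.13, 5.45 and 2.96 at 6 h. The 6 h library 2 was the highest of all 9. The log2 change was -0.26 at 1 h (interval -0.75 to 0.23, adjusted p 0.62) and -0.04 at 6 h, the latter -0.26 without the 6 h library 2. For 6 h against 1 h it was 0.22, and -0.004 without the 6 h library 2. At its lowest value the counting error alone is 9.2%.

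**Figure D3:**
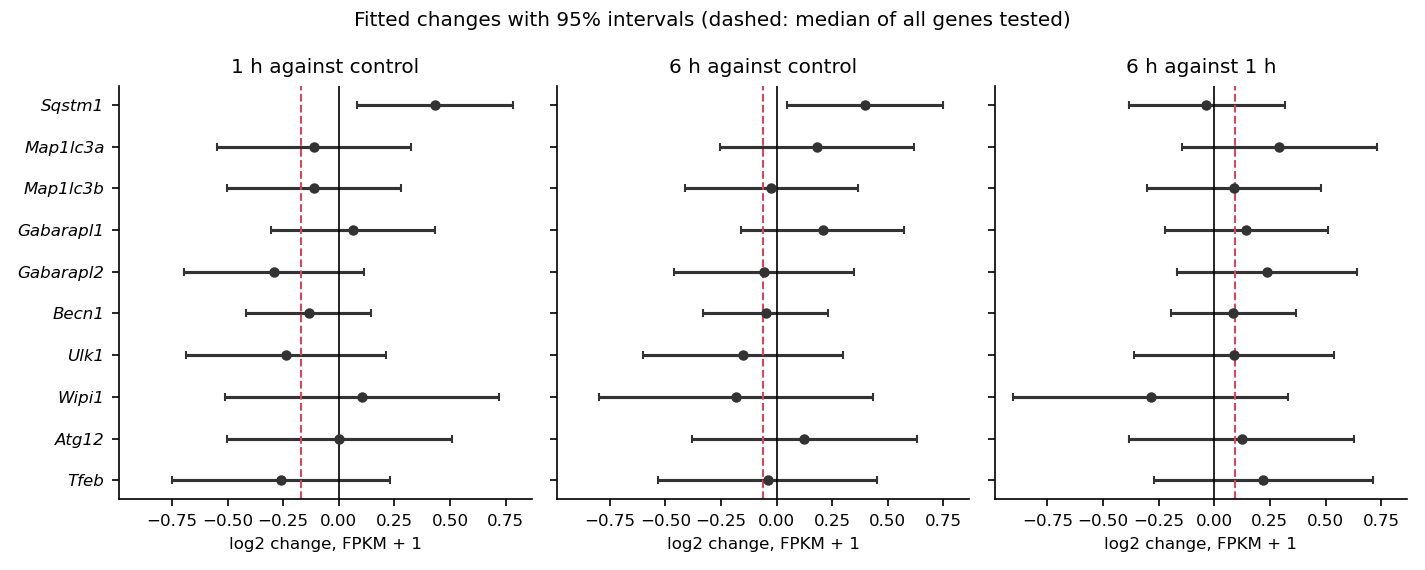
Fitted log2 change, FPKM + 1 (horizontal axes), with 95% intervals for the 10 genes in the 3 comparisons; the dashed line is the median of all tested genes. The Sqstm1 intervals at 1 h (0.08 to 0.78) and 6 h lie above 0, and every other interval includes 0.

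In level per length, the order of the members was led by Sqstm1, above 98.4% of all tested genes by its mean, and ended with Ulk1 and Tfeb, at 37.8% and 21.6%. In controls the means ran from Sqstm1 (362.6) to Map1lc3b (106.5), Gabarapl1 (83.96), Gabarapl2 (83.82), Map1lc3a (83.60), Becn1 (56.44), Wipi1 (37.09), Atg12 (27.53), Ulk1 (7.79) and Tfeb (3.88 FPKM). The ranges of Gabarapl1, Gabarapl2 and Map1lc3a overlapped, as did those of Wipi1 and Atg12, and the other neighbours did not. At 1 h the neighbours from Map1lc3b down to Gabarapl2 overlapped in turn and Wipi1 was above Atg12 in all 3 libraries without overlap. At 6 h the same ATG8 neighbours overlapped, and so did Wipi1 and Atg12. The range of Sqstm1 lay above that of the next member in every group, and those of Atg12, Ulk1 and Tfeb kept apart in every group.

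Members varied together only in part. Over the 9 libraries, which share depth and groups, the 45 pairs of members had Pearson correlations from -0.40 to 0.88 with a median of 0.22, and 30 were above 0. The closest pairs were Gabarapl2 with Becn1 (0.88), Gabarapl2 with Ulk1 (0.78) and Becn1 with Ulk1 (0.76). These 3 genes all had their highest value in control 3, as did 26.3% of all tested genes. The part of other cell types in these correlations was not tested.

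The genes most like Sqstm1 over the 9 libraries, by Pearson correlation among all tested genes, were Hspb1 (0.90), Prkag2 (0.86), Saraf (0.86) and Lox (0.85). Hspb1, a small heat shock protein, was at 153.76, 122.94 and 342.99 FPKM in controls, 1046.99, 1677.89 and 1629.29 at 1 h, and 2484.43, 201.89 and 803.82 at 6 h. Its 6 h library 2 fell inside the range of the controls, whereas Sqstm1 in that library was above all 3 controls. Lox, a collagen and elastin crosslinking enzyme, was at 486.84, 368.09 and 471.66 FPKM in controls, 551.78, 649.71 and 963.81 at 1 h, and 705.41, 512.76 and 507.05 at 6 h. For Map1lc3a, the member with the next largest change, the most alike were H2-Ke6 (0.96), Fam98c (0.95), Il18 (0.95) and Mmp24 (0.93). These are descriptions of 9 libraries, picked as the highest of 11460 genes.

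The rest of the pathway was read from lists of 124 other genes, 122 of them tested. At 1 h 1 gene passed and was higher, Bag3, and 0 were lower, with a median log2 change of -0.15 against -0.17 for all genes. At 6 h against control 0 passed in limma, with a median of -0.07; at an unadjusted p below 0.05 the list had 0 higher genes and 4 lower ones, beside 3.35% of all genes in the lower direction. At 6 h against 1 h 1 passed, Bag3 again, lower. Libraries did not overlap for 11 pathway genes in the higher and 26 in the lower direction at 1 h, or 9.02% and 21.3%, beside 4.49% and 21.4% of all genes. At 6 h against control these counts were 1 and 7, beside 1.89% and 5.32% of all genes, and at 6 h against 1 h 17 and 12, beside 15.2% and 4.97%. With median-of-ratios scaling the 1 h split was 16 higher and 5 lower, beside 9.11% and 6.99% of all genes, and the split for 6 h against 1 h turned to 10 higher and 16 lower, beside 8.89% and 9.16%. That scaling moves the 1 h median of all genes from -0.17 to -0.01.

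Bag3 and its partners form the chaperone-assisted route, in which BAG3 joins HSPA8 and HSPB8 to damaged clients that the ligase STUB1 tags and p62 carries to the autophagosome. Bag3 rose from 60.65, 62.50 and 69.54 FPKM in controls to 425.15, 549.17 and 461.76 at 1 h, and was at 74.22, 70.19 and 78.24 at 6 h. Its 6 h libraries were far below those at 1 h, unlike those of Sqstm1. As with Sqstm1, they were still above every control, though by little for Bag3 (70.19 against 69.54 FPKM at the closest). The log2 change was 2.87 (SE 0.14, adjusted p 1.5e-05 in limma, 7.45 times) at 1 h and -2.67 (adjusted p 3.8e-05) for 6 h against 1 h, and it passed in all 20 alternatives of both. Hspa8, the constitutive chaperone, was at 1247.66 to 1665.42 FPKM in controls, 2879.97 to 3721.76 at 1 h and 1075.91 to 1767.48 at 6 h (log2 change 1.17 at 1 h, adjusted p 0.14). Hspb8, named after its values were seen, was at 84.45 to 126.16, 168.70 to 215.37 and 102.19 to 121.99 FPKM (0.92, adjusted p 0.13). The other list genes, Stub1 and the adaptor Synpo2, also named after their values were seen, had log2 changes of -0.34 and 0.16 at 1 h. The log2 changes of 6 h against control were 0.21 (Bag3), -0.12 (Hspa8), 0.15 (Hspb8) and 0.40 (Sqstm1). Without control 3 and the 6 h library 2 they were 0.30, -0.43, 0.35 and 0.54, and the differences between these genes were not tested.

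NRF2 and KEAP1 set the antioxidant programme to which p62 is tied. Of 9 genes on this list 0 passed at any comparison, and at 1 h 4 had every library above every control and 1, Nfe2l2 (NRF2 itself, -0.32, named after its values were seen), every library below, beside 4.49% and 21.4% of all genes. Without control 3 the Nfe2l2 change was -0.17. Its separation was narrow. From the control mean, the 1 h library 1 lay at -0.186 in log2 and control 1 at -0.183. Slc7a11, the cystine importer, was at 0.78 to 1.13 FPKM in controls, 3.02 to 5.09 at 1 h and 0.25 to 2.52 at 6 h (log2 change 1.29 at 1 h, adjusted p 0.29). Hmox1, heme oxygenase 1, was at 238.52 to 300.22, 399.75 to 575.73 and 114.70 to 254.97 FPKM (0.72, adjusted p 0.45). Srxn1 and Txnrd1, both named after their values were seen, had changes of 0.59 and 0.55, while Nqo1, a common reporter of NRF2 activity also named so, had -0.999 (adjusted p 0.48), with control 3 at 7.61 FPKM beside 20.44 and 22.31 in the other controls (-1.46 without control 3). Without control 3 Srxn1 and Txnrd1 were at 0.43 and 0.43. In the 6 h library 2, 5 of the 9 genes had their lowest value, beside 26.4% of all tested genes. Sqstm1 in that library, at 445.01 FPKM, was above every control.

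**Figure D4:**
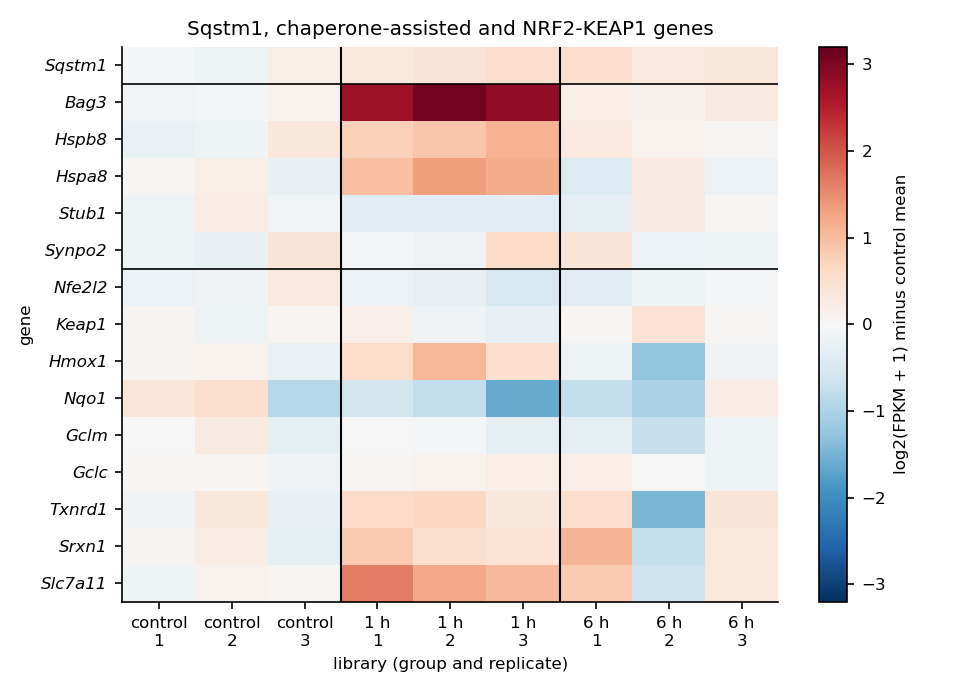
Difference of log2(FPKM + 1) from the control mean (colour, red higher and blue lower) for Sqstm1, the 5 chaperone-assisted genes and the 9 NRF2-KEAP1 genes in each of the 9 libraries. Bag3, Hspb8 and Hspa8 are reddest in the 3 1 h libraries and paler at 6 h, where Hspa8 runs from -0.45 to 0.27, Sqstm1 is light red in all 6 heated libraries, and the 6 h library 2 is blue for Hmox1, Txnrd1, Srxn1 and Slc7a11.

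The upstream steps gave no gene that passed. In the ULK complex list 0 of 4 tested genes passed, with a median log2 change of -0.10 at 1 h, and the largest change was that of Rb1cc1 (FIP200) at 6 h, -0.36, which was -0.18 without control 3 and -0.20 without the 6 h library 2. In the lipid kinase list 0 of 7 passed, with a median of -0.28 at 1 h. Pik3c3, its catalytic subunit, was at 7.18, 6.4 and 9.14 FPKM in controls, 5.72, 5.54 and 4.44 at 1 h, and 8.21, 7.53 and 7.39 at 6 h (log2 change -0.45 at 1 h, adjusted p 0.42). Control 3 was its highest library, and the change without it is not given. Among ATG9, ATG2 and PI3P effectors 0 of 7 passed (median -0.18), with Zfyve1 at -0.49 and, without control 3, at -0.28. Among conjugation enzymes 0 of 10 passed (median -0.14). Atg4d, a protease that trims ATG8 proteins, was at 5.87, 8.72 and 4.57 FPKM in controls and 4.28, 4.02 and 3.02 at 1 h (-0.60, adjusted p 0.43).

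Of 20 other cargo receptors and adaptors 0 passed in any comparison, with medians of -0.12 at 1 h and -0.15 at 6 h. At 1 h 0 of the 20 had every library above every control, and 5 had every library below, beside 4.49% and 21.4% of all genes. Fam134b, a receptor for endoplasmic reticulum, was at 2.35 to 5.01 FPKM in controls, 1.67 to 2.80 at 1 h and 1.33 to 3.82 at 6 h (log2 change -0.48 at 1 h, -0.26 without control 3). The ubiquitin-binding receptors closest in role to p62, named after their values were seen, had 1 h changes of 0.01 (Nbr1), -0.01 (Tax1bp1) and -0.31 (Optn), and 6 h changes of -0.25, -0.26 and -0.41. Without control 3, their highest library, the 1 h changes were 0.19, 0.07 and -0.01 and the 6 h changes -0.07, -0.18 and -0.10. Per length they were lower than Sqstm1, at 18 to 30.26, 52.19 to 82.43 and 4.32 to 10.53 FPKM over the 9 libraries. None of their differences from the Sqstm1 change was tested.

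The transcriptional regulators beside Tfeb had 0 of 5 genes past the test. Foxo3 was at 6.56, 6.06 and 14.51 FPKM in controls, 5.24, 5.04 and 4.48 at 1 h, and 5.44, 2.85 and 6.05 at 6 h, with log2 changes of -0.67 and -0.75 (adjusted p 0.49 and 0.88) and its top value in control 3. Without control 3 these changes were -0.31 and -0.39. The 6 h library 2 held the lowest Foxo3 value, 2.85 FPKM, and the 6 h change without both libraries is not given. Mitf, a relative of TFEB, was near 1 FPKM in controls (1.16 to 1.82) and at 0.51 to 0.78 at 6 h (-0.53, adjusted p 0.88). Its highest value was in control 3 and its lowest in the 6 h library 2, and its change without them is not given. In the mTORC1 and AMPK list 0 of 19 passed, with a median of -0.27 at 1 h. Ddit4, a stress-induced inhibitor of mTORC1, was at 39.13 to 48.85 FPKM in controls and 74.00 to 92.15 at 1 h (0.83, adjusted p 0.49), and spread over 123.77, 31.79 and 62.81 at 6 h (log2 change 0.47, and 0.95 without the 6 h library 2). Fnip1, a folliculin partner, was at 9.99 to 12.43 FPKM at 1 h and 3.82 to 8.73 at 6 h (-0.81, adjusted p 0.33, and -0.53 without the 6 h library 2).

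At the lysosome end, 0 of 13 fusion genes and 0 of 22 lysosomal genes passed. Vamp8, the lysosomal SNARE of fusion, was at 115.52, 106.90 and 92.72 FPKM in controls, 69.79, 69.40 and 83.32 at 1 h, and 88.59, 108.30 and 114.56 at 6 h. All 1 h values were below all others, a log2 change of -0.50 against control (adjusted p 0.37). Every 1 h library was below every control for 21.4% of all genes, and every 6 h library above every 1 h library for 15.2%. The Vamp8 separation under other scalings is not given. Vps18 of the HOPS tether had a 1 h change of -0.55 (adjusted p 0.45), or -0.27 without control 3. Lysosomal genes had medians of -0.10 at 1 h and -0.04 at 6 h. Ctsl was at 936.70 FPKM in control 3 and at 224.99 to 386.73 in the other 8 libraries, so its 1 h change of -0.47 turned to 0.19 without control 3. Ctsd was at 504.60 to 760.00 FPKM in controls, 603.84 to 817.58 at 1 h and 589.59 to 1059.28 at 6 h. The 6 h library 2, with the highest Tfeb value, also held the highest value of 10 of the 22 lysosomal genes, beside 16.4% of all tested genes. Control 1, with the next highest Tfeb value at 4.47 FPKM, held the lowest value of 11 of the 22, beside 2.28% of all tested genes.

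**Figure D5:**
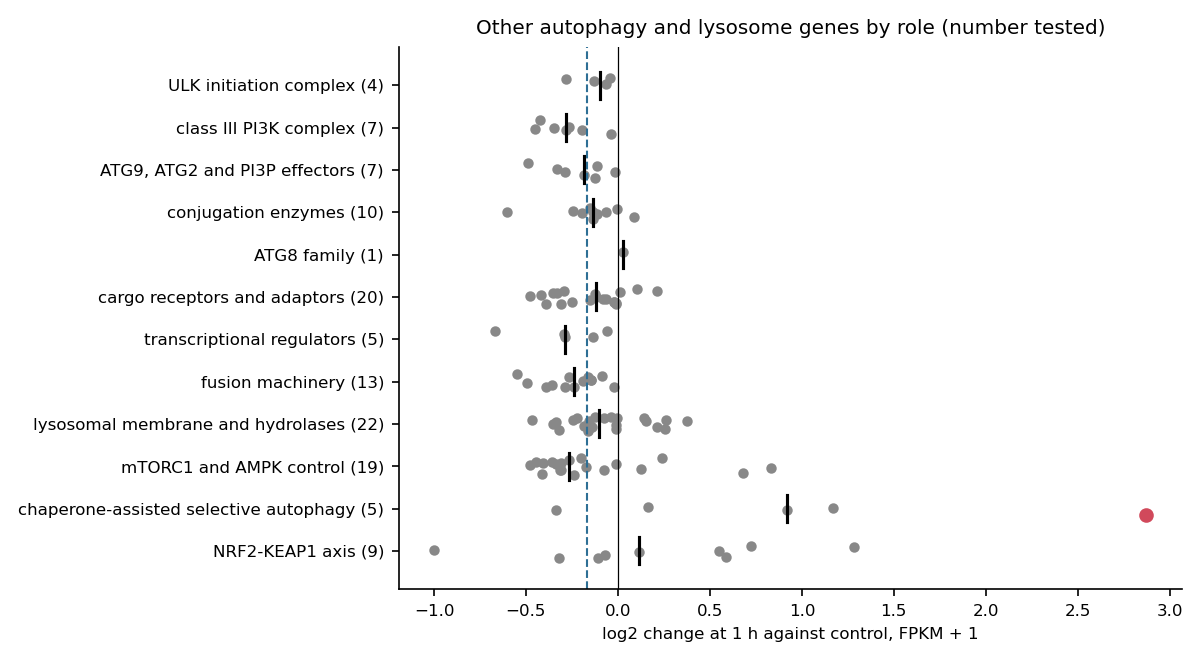
Log2 change at 1 h against control, FPKM + 1 (horizontal axis), of the 122 other tested genes by role (rows, number tested in brackets); black bars are list medians, the dashed line the median of all genes and the red point Bag3, the gene that passed. The medians of 9 of the 12 lists lie below 0, and Bag3 lies at 2.87.

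The authors' deposited table gives DEGseq q-values for the same comparisons. By the authors' deposited table, q was at or below 0.001 for 7 of the 10 members at 1 h, for 6 at 6 h and for 9 between the heated groups, where 55.2%, 44.1% and 48.7% of all genes with a q-value were. With a change of at least 2-fold in the authors' deposited table as well, the members left are 0 in each comparison. The authors' deposited log2 changes for Sqstm1 are 0.43 at 1 h, 0.40 at 6 h and -0.03 between the heated groups.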

How the data were processed

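RNA was measured in 9 libraries, 3 each of control, 1 h and 6 h. Per the file headers, the authors deposited FPKM values per library, log2 fold changes, p-values and DEGseq q-values. The FPKM values have 2 decimals. The tools in the submitters' processing notes are RSEM 1.2.12, Bowtie2 2.2.5 and HISAT2 2.0.4, with genome mm10 and no roles given. FPKM values are relative: where some transcripts gain, others lose.

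The filter kept 11460 genes that reached 1 FPKM in 3 or more libraries. Changes in log2(FPKM + 1) were fitted with limma 3.58.1 in R 4.3.3, using its variance trend, 3 group means, 6 residual degrees of freedom and Benjamini-Hochberg adjustment over all of them, two-sided. Such changes understate those of low genes. The fit was checked on simulated data with known changes. Depth was estimated from low values of transcripts of 400 to 1200 bp, of which 90.7% to 94.3% lay within 0.2 of a whole read (40% by chance). No count test was run. 1 row without a gene name was left out. Of 176 listed symbols 3 were found by NCBI gene identifier. The promoter windows are from RefSeq (GRCm38.p6) and transcripts from GENCODE M21.

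The members and lists were chosen with earlier results of these data known. Named are the members and genes from a set fixed by rule, though not every gene of that set. The set held the genes of each list that passed and the 2 with the largest change. It also held the top 3 markers of each cell type and 4 genes most like each of 2 members. Others, among them markers at or near 0, are said to be named after their values were seen. Deviations of same-numbered control and 1 h libraries had correlations of 0.19, 0.15 and 0.26, all above 0.1, which was treated as possible pairing. Differently numbered ones ran from -0.28 to 0.17, so these values do not settle whether libraries were paired. Same-numbered correlations for 6 h against control were -0.18, 0.04 and 0.01, and for 6 h against 1 h -0.27, -0.10 and -0.35. Alternatives covered the pseudocount, filter, scaling, variance trend, weights, replicate block and libraries left out.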

Additional observations from a re-analysis of the deposited data

Results flagged for a closer look

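Bag3 was higher at 1 h and lower again at 6 h: its log2 difference of 6 h against 1 h was -2.67 and passed limma's test (adjusted p 3.8e-05), so its change differed between the times after heat. Hmox1 had every 1 h library above the control mean and every 6 h library below it. The 6 h libraries 1 and 3, at 247.15 and 254.97 FPKM, lay inside the range of the controls (238.52 to 300.22). Only the 6 h library 2, at 114.70 FPKM, was below every control. The Hmox1 change of 6 h against control was -0.52 (limma, adjusted p 0.88). Its log2 difference of 6 h against 1 h was -1.24, which did not pass (limma, adjusted p 0.17), and without a passed test it is a description. Phb2, a mitophagy receptor of the inner mitochondrial membrane, had every 1 h library below the control mean and every 6 h library above it. Its difference of 0.43 did not pass either (limma, adjusted p 0.47), and control 3 was at 89.00 FPKM beside 134.93 and 165.95 in the other controls. Without the 6 h library 2 the Hmox1 difference was -0.86 and that of Phb2 0.45.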

How the results depend on the processing

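Over 20 alternatives per comparison, the 30 member values (10 genes in 3 comparisons) gave 597 recomputed changes. Of these 546 kept direction and side of the threshold, 50 changed sign while not past the threshold, and 1 passed; 9 of the 30 values never changed sign. Tfeb has no value under a filter of 5 FPKM. The exception was library weights, with 1 member past the threshold at 1 h (Sqstm1) and 18 other pathway genes (9 higher, 9 lower), in a weight estimate that did not converge and gave 1340 genes in all. Of the other pathway genes, quantile normalization gave 2 at 1 h and 2 for 6 h against 1 h. For 6 h against 1 h, no variance trend gave 2, library weights 4, and leaving out control 3 and the 6 h library 2 together 2; the additional gene in each set of 2 was Hspa8. The cause was not tested. Leaving out 1 library at a time gave 0 members in every comparison, and of the pathway genes 1 at 1 h, 0 at 6 h and 1 between the heated groups. Over all genes that gave 8 (without the 1 h library 2) to 52 (without the 6 h library 2) at 1 h, 0 to 25 (without the 6 h library 1) at 6 h, and between the heated groups 8 (without the 1 h library 3) to 104 (without the 6 h library 1). With only the 2 groups compared, 47 genes passed at 1 h.

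The replicate block, the paired fit by replicate number, left 0 members past the threshold in each comparison, changed 0 member calls and gave Sqstm1 an adjusted p of 0.54 at 1 h and 0.92 at 6 h.

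With 3 libraries a group, the 95% intervals of the members were wide: at 1 h that of Wipi1 ran from -0.51 to 0.72 and that of Becn1 from -0.42 to 0.15. The spread differed between groups, with a median SD over genes of 0.24 in controls, 0.15 at 1 h and 0.28 at 6 h on the log2 scale, which 1 fit over 3 groups does not model.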
